A study of Mus musculus with 1814 samples.

Results

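The genes described here carry the symbols of the mitochondrial respiratory chain and ATP synthase, and were measured in mouse germinal center B cells. They were taken by symbol: those starting with Nduf, Uqcr, Cox4 to Cox8 or Atp5, together with Sdha, Sdhb, Sdhc, Sdhd and Cyc1, as the nuclear members, and those starting with mt-Nd, mt-Co, mt-Atp or mt-Cyt as the mitochondrial members, with symbols holding -ps left out. The rule found 98 nuclear and 13 mitochondrial members among the 25125 genes of the table for experiments 1, 3 and 4, and 90 nuclear and 13 mitochondrial members among the 15177 genes of the table for experiment 5. Of the nuclear members of the first table, 41 carry the symbols of complex I subunits, 8 of complex I assembly factors (Ndufaf), 4 of complex II, 9 of complex III, 19 of complex IV and 17 of ATP synthase. Among these, Ndufa11b, Ndufb4c, Ndufs6b and Cox6c2 are annotated as processed pseudogenes (GENCODE vM21). They were kept in the counts of members because their symbols match the rule. The mitochondrial members are 7 of complex I, 1 of complex III, 3 of complex IV and 2 of ATP synthase.

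Each sample is 1 well holding 1 index-sorted germinal center B cell from lymph nodes, with RNA measured by a full-length plate method. Cells of 1 experiment that shared a zone, a time, a Dec status and a genotype were added up to 1 sum, and values are given as CPM, a gene's scaled share of all counts of its sum. Experiment 1 had Dec+ light zone cells at 12 h from 3 plates (58, 56 and 52 cells), 42 Dec+ dark zone cells labelled 30 h (the deposited cell table names that group 36 h), and 80 Dec- light zone cells at 12 h. Experiment 3 had Dec+ dark zone cells at 12, 30, 46 and 60 h (43, 62, 73 and 69 cells) and Dec+ light zone cells at the same times (46, 22, 11 and 21 cells). Experiment 4 had Dec+ dark zone cells at those 4 times (55, 67, 54 and 78 cells) and Dec+ light zone cells at 12, 30 and 46 h (26, 22 and 17 cells), and its 5 light zone cells at 60 h were not used. Experiment 5 held Dec+ cells of the genotypes KO, TA and WT on 4 plates: 62 KO cells, 26, 26, 24 and 25 TA cells by plate and 82 WT cells from the dark zone, and 61, 22 and 41 from the light zone. Its plates carry the name Ccnd3 (cyclin D3), and the labels do not spell out what KO, TA or Dec stand for, give a time for these cells, or give a genotype for the other experiments.

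The respiratory chain passes electrons from NADH (complex I, NADH dehydrogenase) and succinate (complex II, succinate dehydrogenase) through complex III (cytochrome c reductase) to complex IV (cytochrome c oxidase), and the proton gradient this builds drives ATP synthase. Most subunits are encoded in the nucleus and imported, while the core membrane subunits of complexes I, III and IV and parts of ATP synthase are encoded in mitochondrial DNA. Germinal center B cells move between a light zone, where they are selected with T cell help, and a dark zone, where they divide and mutate their antibody genes, and germinal center B cells have been described as relying on oxidative phosphorylation.

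Promoter sequence was compared for the nuclear members because many promoters of this family are known to hold sites for NRF1 and GABP, transcription factors of nuclear genes for mitochondrial proteins, and the members are compared as a group below. RefSeq promoters (GRCm38.p6, 250 bases before to 50 after the start) matched 76 of the 98 nuclear members. On either strand, the NRF1 word, GCGCA and GCGC with any base between them, was in 23.7% of them and in 6.6% of all 17491 promoters. The GABP word CCGGAAG was in 23.7% and 11.9%, and the YY1 word AAGATGGC was in 13.2% and 3.22%. Such matches describe the letters only. These 3 members, a peripheral stalk subunit of ATP synthase (Atp5h), a subunit of complex IV (Cox6a1) and a membrane anchor of complex II (Sdhd), held both the NRF1 and the GABP words, shown in capitals and written in the direction of transcription (minus strand, mm10 coordinates):
Atp5h, chr11:115419941-115420070: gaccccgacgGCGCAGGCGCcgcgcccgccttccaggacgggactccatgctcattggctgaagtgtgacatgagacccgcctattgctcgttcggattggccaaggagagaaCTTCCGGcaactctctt
Cox6a1, chr5:115348959-115349130: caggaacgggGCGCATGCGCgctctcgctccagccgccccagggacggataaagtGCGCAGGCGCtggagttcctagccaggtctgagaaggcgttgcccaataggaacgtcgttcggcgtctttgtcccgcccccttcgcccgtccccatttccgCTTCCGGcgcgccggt
Sdhd, chr9:50603879-50603938: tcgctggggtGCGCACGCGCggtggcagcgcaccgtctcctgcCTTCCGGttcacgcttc
In each of them the NRF1 words lay farther from the start than the GABP word (written CTTCCGG on this strand), which began 38, 16 and 46 bases before the start of Atp5h, Cox6a1 and Sdhd. The mitochondrial members share sequence in another way, since neighbouring reading frames overlap. On the plus strand of the mitochondrial genome, the last 43 bases of mt-Atp8 are the first of mt-Atp6, and the last 7 of mt-Nd4l are the first of mt-Nd4, with the start codon of the second gene in capitals:
mt-Atp8 and mt-Atp6, chrM:7927-7969: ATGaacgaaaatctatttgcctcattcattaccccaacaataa
mt-Nd4l and mt-Nd4, chrM:10167-10173: ATGctaa
A count in those bases cannot be given to 1 gene of the pair. mt-Nd6, the 1 member on the minus strand, overlaps mt-Nd5 by 14 bases.

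The median cell held 417105, 208013, 292109 and 155485 counts in experiments 1, 3, 4 and 5, and a median of 47, 62, 58 and 41 nuclear members and 10, 10, 11 and 11 mitochondrial members were detected per cell. The sums used held 2612729 to 135700242 counts. All 8 B cell markers and all 8 germinal center B cell markers were above 20 CPM in every sum. T cell markers had 1 of 12 above that level in each sum of experiments 1, 3 and 4. In experiment 5, 9 of 11 were above it in KO dark zone cells, with a summed level of 589 CPM and no marker at 0, against 1 of 11 in each other sum, with summed levels of 105.4 to 244.3 CPM. Plasma cell markers had summed levels of 1267 to 5585 CPM in experiment 5. Of those at 20 CPM or more in either group, 3 of 3 were higher in KO than in WT dark zone cells (median log2 ratio 1.16). In the light zone 4 of 4 were higher in KO cells (1.12). In TA against WT cells 0 of 2 were higher in the dark zone and 1 of 3 in the light zone. Ccnd3 itself had 89.3 and 287.3 CPM in KO and TA dark zone cells against 477 CPM in WT dark zone cells, and 78.6 and 118.9 CPM in KO and TA light zone cells against 350 CPM in WT light zone cells.

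Most members were present. Over the 15 sums of experiments 3 and 4, 82 of the 98 nuclear members averaged at least 20 CPM and 10 averaged under 1 CPM. Per kilobase of transcript, the median nuclear member stood at 163.9 CPM and the median mitochondrial member at 1038 CPM. In complex I the highest mean levels belonged to Ndufs8, an iron-sulfur subunit (322.98 CPM), and Ndufa4, which mammalian cells also use in complex IV (279.9 CPM). In complex II they were 412 CPM for Sdha, the flavoprotein that oxidises succinate, and 409 CPM for Sdhb, the iron-sulfur subunit. The core proteins of complex III, Uqcrc1 and Uqcrc2, averaged 580 and 351 CPM. In complex IV, Cox4i1, the ubiquitous form of subunit 4, averaged 921 CPM, and Cox7a2l, a protein that joins complexes III and IV into supercomplexes, averaged 444 CPM. The catalytic subunits of ATP synthase, Atp5a1 and Atp5b, averaged 1510 and 1255 CPM. Per kilobase, the order of the 2 leading members reversed in complex I (330.6 CPM for Ndufs8 and 608 CPM for Ndufa4) and in complex II (227.6 CPM for Sdha and 358 CPM for Sdhb).

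The subunits that exist as tissue-specific pairs showed the ubiquitous form in each case. Cox6a1, Cox6b1, Cox7a2 and Cox8a averaged 256.7, 249.2, 176.8 and 311.6 CPM. Their counterparts of heart and muscle or testis, Cox6a2 and Cox8c, were at 0 in every sum of experiments 1, 3 and 4, Cox6b2 reached 2.09 CPM in them, and Cox7a1 reached 1.27 CPM apart from 14.5 CPM in the 11 light zone cells of experiment 3 at 46 h. Cox4i2, the hypoxia- and lung-associated form of subunit 4, was at 0 except for 0.137 CPM in Dec- cells, and Ndufa4l2, a hypoxia-induced relative of Ndufa4, was at 0 except for 0.383 CPM in 1 sum of those experiments. A 0 in these sums allows up to 3 counts of a sum's total, and this limit covers counting error only. All 3 genes for the membrane ring of ATP synthase were present, with Atp5g3 at 326.7 CPM, Atp5g1 at 169.3 CPM and Atp5g2 at 89.3 CPM. Atp5g2 is uncertain: 71.5, 80.1 and 70.2% of the counts of Atp5g2 and its near-identical pseudogenes lay on the pseudogenes in experiments 1, 3 and 4.

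Among the mitochondrial members, mt-Nd1, a core subunit of complex I, led per kilobase in 3 of the 4 experiments, with 4330 ± 632 CPM (SD, n = 3 sums) in experiment 1, 8355 ± 1430 in experiment 4 (n = 7) and 10504 ± 1338 in experiment 5 (n = 6). In experiment 3, mt-Cytb, the mitochondrial subunit of complex III, led with 2464 CPM per kilobase, ahead of mt-Nd1 with 2128 and mt-Co1, the catalytic subunit of complex IV, with 1157. mt-Nd3 was the lowest and mt-Nd4l the next lowest in all 4 experiments. mt-Nd6 ranked 10 or 11 of 13. These low ranks of mt-Nd3 and mt-Nd4l stand beside the counts of near-identical copies in the nuclear genome.

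Copies of 7 mitochondrial members are neighbours on chromosome 1 as unprocessed pseudogenes, and the tables per plate list counts for them. Gm10222, the copy of mt-Nd4l, held 46.1, 144.5 and 138.8 CPM in experiments 1, 3 and 4, where mt-Nd4l held 1.48, 11.8 and 7.98 CPM. Gm28438, the copy of mt-Nd3, held 5.57, 7.05 and 21.5 CPM, against 1.83, 0.205 and 4.64 CPM for mt-Nd3. Counts assigned to those 2 genes alone are thus the smaller part of each pair. Gm10925, the copy of mt-Atp6, held 485, 685 and 2110 CPM, and Gm28437, the copy of mt-Co3, held 222.9, 621 and 828 CPM. The copies held 6.08 to 6.92% of the summed counts of mitochondrial members and copies in the sums of experiment 1, 22.4 to 26.3% in experiment 3 and 14.8 to 17% in the 7 sums used of experiment 4. The copies were not examined for experiment 5.

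**Figure D1:**
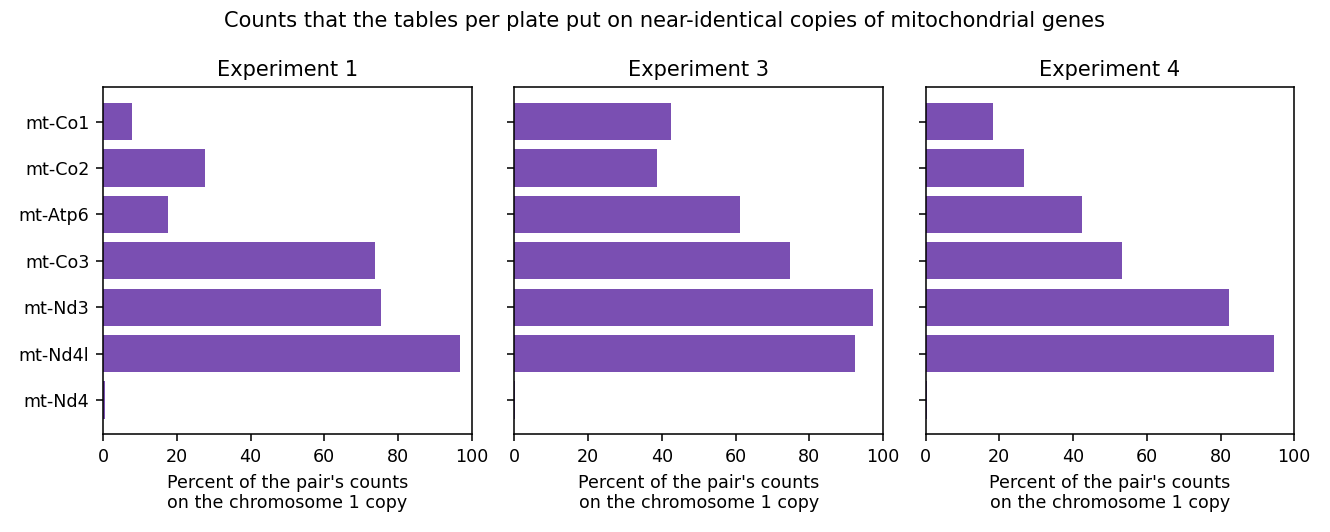
Percent of the counts of each mitochondrial gene and its near-identical copy on chromosome 1 that were assigned to the copy, for 7 genes in experiments 1, 3 and 4 (bars). The copy took 96.9, 92.5 and 94.6% for mt-Nd4l and 0.601, 0.0726 and 0.446% for mt-Nd4, its neighbour.

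Dark zone cells were first set against light zone cells of the same experiment and time, in 7 pairs of Dec+ sums from experiments 3 and 4. Some cells of the dark zone sums were marked by the authors for both zones, and no cell of the light zone sums was. Those without a double mark were 39 of 43, 53 of 62, 65 of 73 and 57 of 69 dark zone cells in experiment 3. In experiment 4 they were 41 of 55, 40 of 67 and 38 of 54 dark zone cells at 12, 30 and 46 h. Sdhb, Sdha and Cox7a2l were higher in the dark zone in 6 or 7 of the 7 pairs, but no member passed the test. The share of all genes higher in as many pairs is not given here. Of all genes tested, 64.8% had a positive log2 ratio between zones. Sdhb had 556, 512, 541 and 533 CPM in dark zone cells of experiment 3 at 12, 30, 46 and 60 h, against 378, 361, 496 and 335.9 CPM in light zone cells. In experiment 4 it had 324.7, 368 and 484 CPM in dark zone cells at 12, 30 and 46 h, against 264.97, 247.2 and 360 CPM in light zone cells. It was higher in the dark zone in 7 of 7 pairs. Sdha had 490, 368, 423, 392, 428, 547 and 504 CPM in the dark zone sums, in the same order of pairs, against 388, 276.8, 260.7, 358, 364, 522 and 362 CPM in the light zone sums, again higher in 7 of 7. Cox7a2l had 671, 475, 562, 559, 448, 439 and 537 CPM in the dark zone sums against 308.9, 566, 347, 433, 211.7, 270 and 289.9 CPM in the light zone sums, higher in 6 of 7. By edgeR's quasi-likelihood test with experiment and time as block, the log2 ratios were 0.45 (SE 0.11, Benjamini-Hochberg adjusted p = 0.135) for Sdhb, 0.34 (SE 0.12, adjusted p = 0.344) for Sdha and 0.66 (SE 0.17, adjusted p = 0.151) for Cox7a2l.

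Across the family, 0 of 87 nuclear and 0 of 12 mitochondrial members tested passed an adjusted p of 0.05 between zones by edgeR, where 0.323% of all 9302 genes did. At an unadjusted p below 0.05, 6 nuclear members were higher and 1 was lower in the dark zone, where 9.41% of all genes passed that level. DESeq2 called 2 members, Cox7a2l and Sdhb, and 5.07% of all genes. In experiment 5, which that fit did not use, Sdhb had 201.1, 255.2 and 321.6 CPM in KO, TA and WT dark zone cells against 156.8, 170.1 and 192.6 CPM in KO, TA and WT light zone cells. Cox7a2l had 426, 300.1 and 399 CPM in the dark zone against 315.2, 205.7 and 251.99 CPM in the light zone. Both were thus higher in the dark zone of all 3 genotypes, and both passed the edgeR test once those 3 pairs were added, as 1.65% of all genes then did. Sdha had 282.1, 399.6 and 414.4 CPM in KO, TA and WT dark zone cells against 379.1, 259.8 and 499.8 CPM in light zone cells. Sdha was thus higher in the dark zone of TA cells and lower in that of KO and WT cells.

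By complex, 4 of 4 members of complex II were higher in the dark zone (median log2 ratio 0.40), 30 of 38 of complex I (0.10), 9 of 11 of complex IV (0.09) and 13 of 17 of ATP synthase (0.09). Complex III had 3 of 9 higher (-0.03) and the complex I assembly factors 3 of 8 (-0.07). Over the family, 62 of 87 nuclear members were higher with a median of 0.09, and 9 of 12 mitochondrial members with a median of 0.10, while 64.8% of all genes tested were higher with a median of 0.20 (0.02 without the block). Without experiment 3 the nuclear median was -0.07, with 32 of 87 higher, and without experiment 4 it was 0.16. The mitochondrial median was 0.04 without experiment 4. Other members at the extremes were Ndufa9 of complex I, with a log2 ratio of 0.74 (SE 0.36), Sdhc, a membrane anchor of complex II, with 0.90 (SE 0.93), and the assembly factors Ndufaf4, with -0.85 (SE 0.53), and Ndufaf1, with -0.59 (SE 0.45). Atp5g1 also lay lower in the dark zone, with -0.45 (SE 0.20).

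The time course asked how Dec+ cells differed from the 12 h cells at 30, 46 and 60 h in each zone, in 1 edgeR fit over 17 sums of experiments 1, 3 and 4 with experiment as block. In the dark zone at 46 h most nuclear members stood above 12 h: 84 of 89 had a positive log2 ratio, with a median of 0.57, where 49.6% of all 11662 genes did, with a median of -0.01. No member passed the test. The count past the adjusted threshold was 0 of 89 nuclear and 0 of 13 mitochondrial members, and 0% of all genes passed. At an unadjusted p below 0.05 there were 7 nuclear and 2 mitochondrial members, all higher at 46 h, where 4.3% of all genes passed that level. DESeq2 called 0 members and 1.16% of all genes. With all adjusted p at 1, the shift of the family is a description of 2 experiments.

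Cox4i1 had 1000, 1090, 1376 and 1285 CPM in dark zone cells of experiment 3 at 12, 30, 46 and 60 h, and 482, 628, 961 and 718 CPM in experiment 4. Its 46 h value was the highest of each experiment, and the levels of the 2 experiments did not overlap. Uqcr10, a small subunit of complex III, had 59.5, 85.3, 123.6 and 112.8 CPM in experiment 3 and 28.9, 38.2, 75.1 and 45.6 CPM in experiment 4. Atp5g3 had 288.8, 344, 526 and 363 CPM in experiment 3 and 246.8, 238.1, 364 and 251.7 CPM in experiment 4. All 3 genes peaked at 46 h in both experiments. The log2 ratios of 46 h over 12 h were 0.82 (SE 0.29, unadjusted p = 0.0126) for Cox4i1, 1.32 (SE 0.50, unadjusted p = 0.0184) for Uqcr10 and 0.80 (SE 0.30, unadjusted p = 0.018) for Atp5g3 by edgeR. Cox6b1 (0.82, SE 0.32), Atp5g1 (0.99, SE 0.39) and Atp5j2 (1.13, SE 0.53), all small subunits of complex IV or ATP synthase, were next to them.

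The positive ratios at 46 h in the dark zone spread over the complexes, with 17 of 17 members of ATP synthase (median 0.63), 9 of 9 of complex III (0.79), 12 of 13 of complex IV (0.68), 36 of 38 of complex I (0.50) and 7 of 8 assembly factors (0.40). Complex II, with 3 of 4 and a median of 0.07, stood near 0. Atp5a1, the nuclear member with the highest mean level, is counted as positive by the fit, which scales the sums. Yet its CPM was lower at 46 h than at 12 h in both experiments. It had 1601 against 1743 CPM in experiment 3 and 1263 against 1296 CPM in experiment 4. Atp5b had 1398 against 1330 CPM and 1356 against 877 CPM, and Sdha 423 against 490 CPM and 504 against 428 CPM. Members at the low end were Ndufa1 (-0.14, SE 0.48) and Ndufaf1 (-0.05, SE 0.76). Of the mitochondrial members 10 of 13 were higher, with a median of 0.28 (0.46 without experiment 3). mt-Co2, a core subunit of complex IV, had 527, 688, 873 and 804 CPM at 12, 30, 46 and 60 h in experiment 3 and 2345, 2343, 3977 and 2441 CPM in experiment 4, a log2 ratio at 46 h of 0.85 (SE 0.28, unadjusted p = 0.0078). mt-Nd2 had 31.1, 60, 67.4 and 82 CPM in experiment 3 and 208.5, 403, 455 and 270.6 CPM in experiment 4, a ratio of 1.22 (SE 0.41, unadjusted p = 0.0101). The 46 h value was the highest of the 4 times for mt-Co2 in both experiments and for mt-Nd2 in experiment 4.

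Together the nuclear members took 1.92, 1.85, 2.24 and 2.00% of the counts of dark zone cells at 12, 30, 46 and 60 h in experiment 3, and 1.3, 1.53, 1.87 and 1.43% in experiment 4. The size differed between the experiments: 60 of 81 nuclear members over 20 CPM were higher at 46 h in experiment 3 (median log2 ratio 0.30) and 74 of 80 in experiment 4 (0.63). Fitted without experiment 3 the median was 0.83, and without experiment 4 it was 0.33, with 1 nuclear member at an unadjusted p below 0.05. With cells weighted equally it was 0.37, with 76 of 89 higher. Cell cycle phase, as the authors' calls give it, moved with time: 60.5, 40.3, 27.4 and 26.1% of dark zone cells were in G1 at the 4 times in experiment 3, and 41.8, 22.4, 24.1 and 32.1% in experiment 4. Within G1 cells the nuclear share was 2.06% at 46 h against 1.89% at 12 h in experiment 3, and 1.49% against 1.18% in experiment 4. Within S phase cells it was 2.42% at 46 h against 2.07% at 12 h, and 2.08% against 1.39%. Against 12 h, the 46 h share was higher within both phases of both experiments, in groups of 11 to 26 cells. In G1 cells of experiment 4 the share was 1.49% at 46 h and 1.48% at 60 h. Whether phase accounts for the 46 h shares was not tested.

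**Figure D2:**
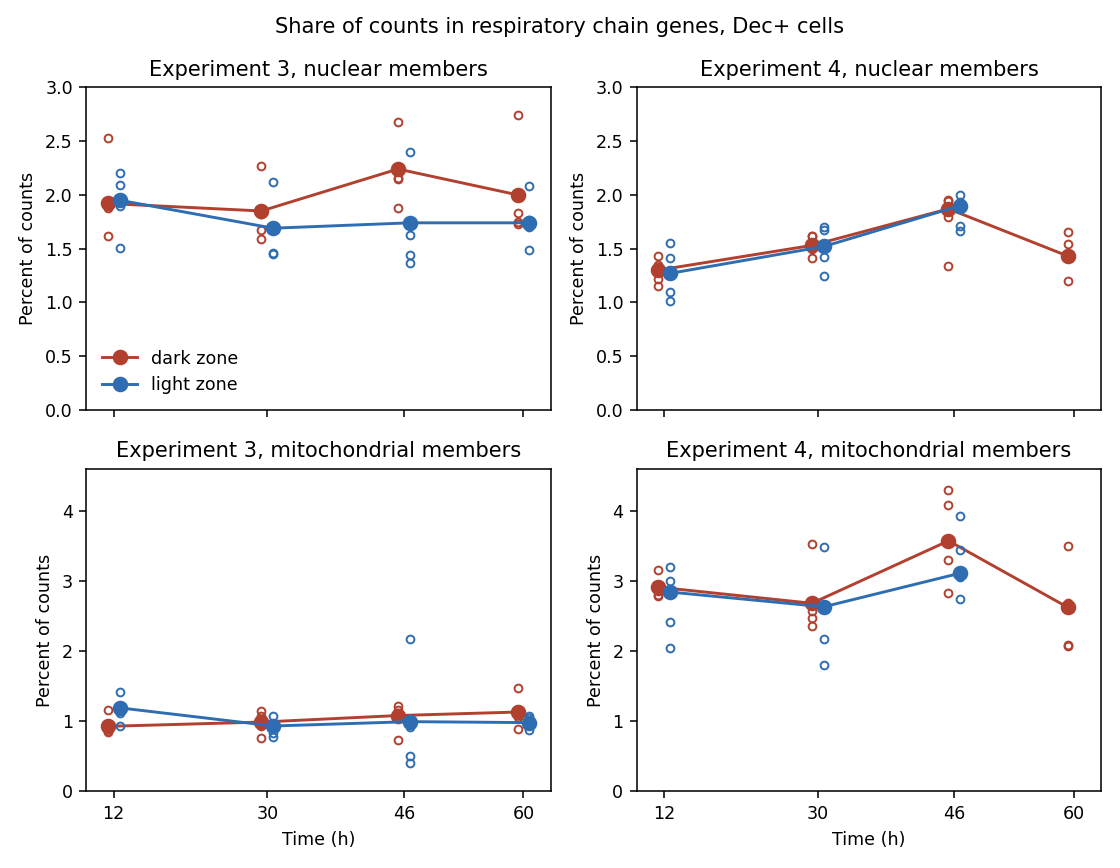
Percent of counts in nuclear members (upper row) and mitochondrial members (lower row) over 12, 30, 46 and 60 h in Dec+ dark zone and light zone cells of experiments 3 and 4. Filled points joined by lines are all cells of a group (dark zone red, light zone blue) and open circles single plates. The nuclear share of the dark zone is highest at 46 h in both experiments (2.24 and 1.87%), and that of the light zone in experiment 4 only (1.90%).

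At 30 h and 60 h the dark zone lay closer to 12 h. The nuclear medians were 0.09 at 30 h (58 of 89 higher) and 0.13 at 60 h (58 of 89 higher), and the mitochondrial ones 0.04 and 0.11. At 30 h the mitochondrial median was 0.30 without experiment 4, with 12 of 13 higher, 0.02 without experiment 3 and -0.03 without experiment 1. At 60 h it was 0.01 without experiment 3 and 0.35 without experiment 4. By edgeR 0 members and 0% of all genes passed at either time. At an unadjusted p below 0.05 there were 0 nuclear members and 1 mitochondrial member, higher, at each time, where 2.19% of all genes passed that level at 30 h and 1.66% at 60 h. DESeq2 called 0 members at both, and 0.78% and 0.84% of all genes. In all 3 dark zone comparisons the 12 h sums are shared. At 30 h, members at the extremes were Uqcrb of complex III (0.74, SE 0.51), Ndufaf4 (0.74, SE 0.85), Atp5k of ATP synthase (-0.51, SE 0.96) and Ndufa3 of complex I (-0.46, SE 0.64). At 60 h they were Atp5j2 (0.81, SE 0.52), Ndufaf8 (0.96, SE 0.82), Sdhd (-0.64, SE 0.36) and Ndufa3 (-0.59, SE 0.67). Each of these ratios was under 2 SE.

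In the light zone at 46 h the nuclear median was 0.33, with 68 of 89 members higher, where the median of all genes was -0.30. The experiments went apart: in experiment 3 the nuclear members' median ratio of 46 h over 12 h was -0.28, with 22 of 83 higher, and in experiment 4 it was 0.62, with 74 of 82 higher. Fitted without experiment 3 the median was 0.79, and without experiment 4 it was -0.18. With cells weighted equally it was 0.18, with 57 of 89 higher. These light zone sums held 11 and 17 cells. Cox7a2 shows the split, with 198.3, 158.4, 183.3 and 219.2 CPM at the 4 times in experiment 3 and 104.3, 102.2 and 287.6 CPM at 12, 30 and 46 h in experiment 4 (log2 ratio 0.99, SE 0.41, adjusted p = 0.341 by edgeR). Among members at 20 CPM or more, the assembly factor Ndufaf7 had the lowest ratio (-2.08, SE 0.85, adjusted p = 0.34 by edgeR), followed by Ndufb2 of complex I (-0.88, SE 0.76), and the assembly factor Ndufaf6 the highest (1.59, SE 1.21). No member passed by edgeR, where 0.472% of all genes did. At an unadjusted p below 0.05, 4 nuclear members were higher and 1 was lower, where 11.5% of all genes passed that level. DESeq2 called 1 member, Uqcrfs1, the iron-sulfur protein of complex III, as higher, and 9.62% of all genes.

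At 30 h in the light zone 43 of 89 nuclear members were higher (median -0.02) and 3 of 13 mitochondrial ones (-0.18), where all genes had a median of -0.10. The nuclear median was 0.09 without experiment 3 and -0.09 without experiment 4, and the mitochondrial one -0.03 without experiment 3, -0.33 without experiment 4 and -0.29 without experiment 1. By edgeR 0 members and 0% of all genes passed. At an unadjusted p below 0.05 there were 1 higher nuclear member, Cox7a2l (0.68, SE 0.29), 1 lower nuclear member, the complex I subunit Ndufa10 (-0.84, SE 0.37), and 1 lower mitochondrial member, where 3.45% of all genes passed that level. DESeq2 called 1 member, mt-Nd4l, as lower, and 1.03% of all genes. mt-Nd4l was near the floor there, with 1.04 and 0 CPM at 30 h in experiments 3 and 4. Its copy held 92.5 and 94.6% of the counts of the 2 in those experiments. Ndufa3 (0.60, SE 0.64) and Ndufb3 (-0.82, SE 0.59) of complex I were next at either end. At 60 h, with 1 light zone sum of 21 cells from experiment 3, 34 of 89 nuclear members were higher (-0.15) and 2 of 13 mitochondrial ones (-0.14), where all genes had a median of -0.27. The nuclear median was -0.03 with cells weighted equally, and the mitochondrial one -0.24 without experiment 4. By edgeR 0 members passed and 0.12% of all genes did. At an unadjusted p below 0.05 there was 1 nuclear member, lower, where 7.03% of all genes passed that level. DESeq2 called 1 member, Sdhc, as lower, and 5.61% of all genes. Sdhc was at 0 CPM in that 1 light zone sum. At the ends stood Ndufaf6 (1.78, SE 1.47), Ndufs7 of complex I (0.88, SE 0.45), Ndufaf4 (-1.24, SE 1.15) and Ndufb2 (-1.17, SE 0.99). The test of whether the change from 12 to 30 h differed between zones found 0 members and 0% of all genes past the threshold by edgeR, with 2 nuclear members and 1 mitochondrial member at an unadjusted p below 0.05, where 2.79% of all genes passed that level. DESeq2 called 0 members and 1.31% of all genes. With the light zone's change taken from the dark zone's, the medians were 0.09 for nuclear members (51 of 89 positive), 0.42 for mitochondrial ones (10 of 13 positive) and 0.09 for all genes. Without experiment 3 they were -0.03 for nuclear and -0.13 for mitochondrial members (5 of 13 positive), and without experiment 4 the nuclear one was 0.18. With the copies' counts added the mitochondrial median was 0.17. Ndufa10 (1.42, SE 0.53) and Ndufaf4 (1.29, SE 1.3) had the highest values and Ndufa3 (-1.06, SE 0.95) and Cox7a2l (-0.95, SE 0.43) the lowest.

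**Figure D3:**
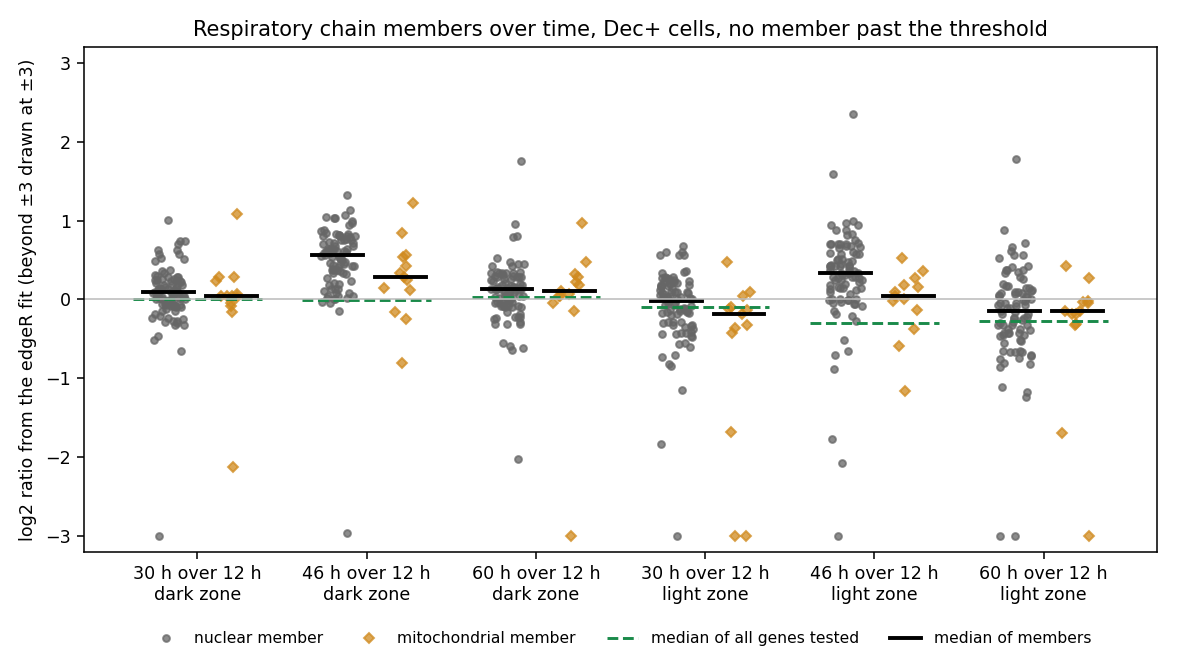
Log2 ratios of 30, 46 and 60 h over 12 h from the edgeR fit for each nuclear member (grey circles) and mitochondrial member (orange diamonds) in the dark zone and the light zone, with values beyond 3 drawn at 3. Black lines are medians of members and green dashed lines medians of all genes tested. The nuclear members of the dark zone at 46 h have a median of 0.57, against -0.01 for all genes.

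Phase was also compared inside single groups. In the 10 groups with at least 10 cells in each phase, the nuclear share was higher in S than in G1 in 9 and higher in G2M than in G1 in 8. The mitochondrial share was higher in S than in G1 in 5 and higher in G2M than in G1 in 3. The nuclear share was thus higher in cells called S or G2M in most of these groups, and the mitochondrial share was not.

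Dec+ light zone cells at 12 h were set against Dec- light zone cells of the same 3 plates in experiment 1. With 1 experiment there is no test, and SD values are over plates, which is technical spread. The nuclear members took 0.865% of counts in Dec+ cells against 0.682% in Dec- cells, and by plate 0.805 to 0.973% against 0.599 to 0.786%, so that the groups did not overlap. Atp5b and Atp5a1 of ATP synthase and Uqcrc1 of complex III lay higher in Dec+ cells, while Uqcrc2 had 243.2 CPM in Dec+ cells against 262.4 CPM in Dec- cells. Over all genes at 20 CPM or more, plates did not overlap and lay higher in Dec+ cells for 11% and lower for 6.09%. Atp5b had 1699 CPM in Dec+ cells (1436 to 1993 over plates) against 1129 CPM in Dec- cells (886 to 1338), a log2 ratio of 0.59. Atp5a1 had 1591 CPM in Dec+ cells (1443 to 1919) against 1125 CPM in Dec- cells (998 to 1258), a log2 ratio of 0.50. Uqcrc1 had 521 CPM in Dec+ cells (447 to 596) against 317.9 CPM in Dec- cells (162.3 to 549), with plates that overlapped. The assembly factors Ndufaf1 (37.9 CPM in Dec+ cells against 5.24 CPM in Dec- cells) and Ndufaf4 (38.5 against 5.95 CPM) differed most.

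Of the 98 nuclear members 46 reached 20 CPM in either group, and 33 of these were higher in Dec+ cells (median log2 ratio 0.27, all genes 0.07). At 1.5-fold or more, 15 were higher, where 29.2% of all genes were, and 1 was lower, where 23.6% of all genes were. The lower one was Ndufs7 of complex I (37.2 CPM in Dec+ cells against 60.1 CPM in Dec- cells), and Ndufa8 of complex I was next (27.6 against 39.6 CPM). The count of higher members was close to the background, and that of lower members under it. The median rested on plates: it was -0.03 without plate GC2 and 0.60 at the other end of leaving 1 plate out. Within G1 cells it was 0.64 and within S and G2M cells -0.01. Of Dec+ cells 42.2% were called G1, against 58.8% of Dec- cells. The mitochondrial members went the other way, with 1.83% of counts in Dec+ cells against 2.07% in Dec- cells and 3 of 11 higher (median -0.18, and -0.07 without plate GC3). mt-Co1 had 3358 CPM in Dec+ cells against 4586 CPM in Dec- cells, and mt-Co2 376 against 526 CPM, both without overlap of the plates. mt-Nd2 lay higher, with 256.9 CPM in Dec+ cells against 197.2 CPM in Dec- cells.

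Genotypes were compared in experiment 5, again with 1 sum a group and no test. Most mitochondrial members lay higher in KO dark zone cells than in WT dark zone cells. Together they took 5.65% of counts in KO dark zone cells against 4.31% in WT dark zone cells. By plate the shares were 6.62, 5.26, 5.33 and 5.47% in KO cells against 4.83, 4.93, 4.18 and 3.3% in WT cells, so that the groups did not overlap. mt-Co1 had 13956 CPM in KO cells (11993 to 18181 over plates) against 8207 CPM in WT cells (7178 to 9782), a log2 ratio of 0.77. mt-Co2 had 4470 CPM (3942 to 5460) in KO cells against 2971 CPM (2779 to 3205) in WT cells, and mt-Cytb had 9026 CPM (7149 to 9976) against 6466 CPM (5122 to 6959). Plates of these 3 genes did not overlap, and those of the other mitochondrial members did. Over all genes, plates did not overlap and lay higher in KO cells for 2.35% and lower for 5.22%.

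Of 12 mitochondrial members over 20 CPM, 10 were higher in KO dark zone cells, with a median of 0.49 where all genes had -0.16. At 1.5-fold or more 4 were higher and 0 lower, where 20.5% of all genes were higher and 29.6% lower. The 4 were mt-Co1, mt-Co2, mt-Nd2 (451 CPM in KO cells against 270.6 CPM in WT cells) and mt-Nd6 (200.6 against 116.3 CPM). mt-Nd1 lay the other way, with 8364 CPM in KO cells against 9827 CPM in WT cells, as did mt-Nd4l, with 25.3 against 37.9 CPM. mt-Nd3 was under 20 CPM in both. The remaining ratios were 0.52 for mt-Co3, 0.50 for mt-Atp6, 0.42 for mt-Atp8, 0.33 for mt-Nd5 and 0.32 for mt-Nd4. Mitochondrial ribosomal RNA, which is no member, took 5.14% of counts in KO dark zone cells against 3.11% in WT dark zone cells, with plates that overlapped. Of KO dark zone cells 77.4% were called G1 against 46.3% of WT dark zone cells, and within G1 cells the mitochondrial share was 5.79% in KO cells against 4.33% in WT cells. Leaving out cells with at least 3 T cell markers (4 of 62 KO cells and 1 of 82 WT cells) gave a median of 0.43, and leaving out plate 4 gave 0.30. Plasma cell markers, which were also higher in KO cells, were not used to leave out cells.

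**Figure D4:**
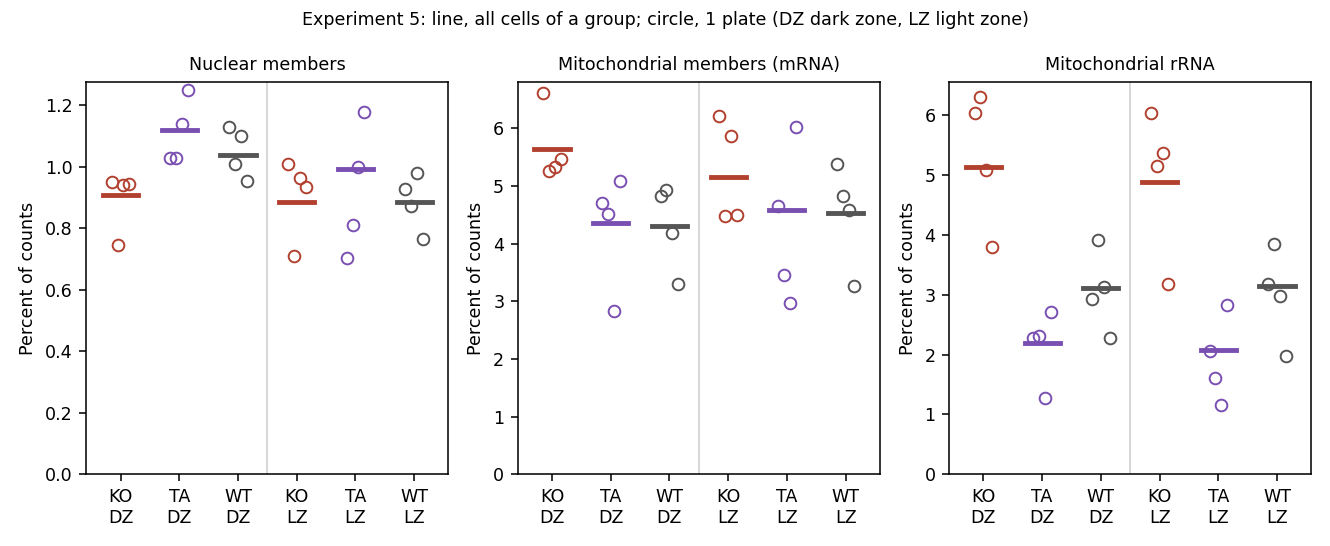
Percent of counts in nuclear members, mitochondrial members and mitochondrial ribosomal RNA in KO, TA and WT cells of the dark zone (DZ) and light zone (LZ) in experiment 5. Lines are all cells of a group and circles single plates. The mitochondrial members of KO dark zone cells lie between 5.26 and 6.62% by plate, above WT dark zone cells at 3.3 to 4.93%.

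The nuclear members did not share this direction. They took 0.908% of counts in KO dark zone cells against 1.04% in WT dark zone cells. By plate they took 0.747 to 0.951% against 0.954 to 1.13%, without overlap but with the nearest plates close together. The catalytic subunits of ATP synthase and succinate dehydrogenase were among the lower ones. Atp5a1 had 742 CPM in KO cells (625 to 810 over plates) against 1012 CPM in WT cells (865 to 1140), without overlap, and Atp5b had 525 CPM (369 to 676) against 788 CPM (655 to 878). Sdha had 282.1 CPM in KO cells against 414 CPM in WT cells and Sdhb 201.1 against 321.6 CPM, each lower in KO cells in 4 of 4 plates. Of 76 nuclear members over the minimum 32 were higher (median -0.07), with 4 at 1.5-fold or more higher and 12 lower. Of all genes, 20.5% were 1.5-fold or more higher and 29.6% lower. The share of nuclear members that were higher at all, 42.1%, was close to the 42.6% of all genes. The nuclear median was -0.17 without cells of 3 or more T cell markers, -0.16 with cells weighted equally and -0.23 to -0.19 within single plates, against -0.16 for all genes in all cells. With mitochondrial genes left out of the total it was -0.02, and 37 of 78 nuclear members were higher. The highest ratios were those of Cox7c (33.3 CPM in KO cells against 15.7 CPM in WT cells) and Uqcrb (154.9 against 89.9 CPM), small subunits of complexes IV and III, and the lowest those of Ndufb3 (19.6 against 44.4 CPM) and Atp5j2 (20.2 against 45.2 CPM).

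In the light zone, KO cells held 0.886% nuclear and 5.15% mitochondrial counts, against 0.886% and 4.54% in WT cells. Of 12 mitochondrial members 9 were higher (median 0.19), and mt-Co1, with 11848 CPM in KO cells against 8880 CPM in WT cells, was the 1 of them whose plates did not overlap, where 3.96% of all genes lay higher in KO cells and 2.48% lower without overlap. At 1.5-fold or more, 0 mitochondrial members were higher and 1 lower, and 11 of 77 nuclear members were higher and 11 lower (median 0.05), where 27.7% of all genes were higher and 28.4% lower. The complex I subunits Ndufc2 (58.6 CPM in KO cells against 24.2 CPM in WT cells) and Ndufb3 (42.3 against 19.3 CPM) stood at the high end. The assembly factor Ndufaf5 (5.05 CPM in KO cells against 24 CPM in WT cells) and Ndufv1, the NADH-binding subunit of complex I (60.3 against 139.03 CPM), stood at the low end. The mitochondrial median depended on the cells used: it was -0.02 within G1 cells and 0.38 within S and G2M cells.

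The mitochondrial members took 4.35% of counts in TA dark zone cells (2.83 to 5.08% over plates) against 4.31% in WT dark zone cells (3.3 to 4.93%), and 4.58% in TA light zone cells against 4.54% in WT light zone cells. mt-Co1 had 7186 CPM in TA dark zone cells against 8207 CPM in WT dark zone cells, and mt-Nd1 had 11062 against 9827 CPM, with overlapping plates. In the dark zone 45 of 75 nuclear members were higher (median 0.08), 10 at 1.5-fold or more higher and 3 lower, where 17.9% of all genes were higher and 19.9% lower. Uqcrb, with 197.02 CPM in TA cells against 89.9 CPM in WT cells, and Atp5j, a coupling subunit of ATP synthase, with 368 against 190.2 CPM, were the highest. Ndufaf7 (20.2 CPM in TA cells against 45 CPM in WT cells) and Ndufa12 of complex I (32.8 against 50.5 CPM) were the lowest. In the light zone, with 22 TA cells, 21 of 80 nuclear members were at 1.5-fold or more higher and 9 lower (median -0.06), where 29% of all genes were higher and 32.3% lower. Ndufaf6 had 51.9 CPM in TA light zone cells against 9.86 CPM in WT light zone cells, and Ndufb6 of complex I had 150.5 against 42.7 CPM. Ndufaf5 had 1.64 CPM in TA light zone cells against 24 CPM in WT light zone cells, and Sdhd had 25.2 against 75.2 CPM. KO and TA share the WT sums, so these comparisons are not independent.

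Between zones of experiment 5, the nuclear members were higher in the dark zone in 49 of 77 (median 0.19) in WT cells, where 24.7% of all genes were 1.5-fold higher and 23.4% lower, and 15 and 4 nuclear members were. In KO cells 45 of 77 were higher (0.12), 11 at 1.5-fold or more higher and 8 lower, where 19.2% and 26% of all genes were. In TA cells 49 of 79 were higher (0.23), 18 at 1.5-fold or more higher and 15 lower, where 31.1% and 29.3% of all genes were. The mitochondrial medians were -0.09 in WT, 0.17 in KO and -0.09 in TA cells. Of complex II members, 2 of 3 were higher in WT (median 0.51), 1 of 4 in KO (-0.35) and 3 of 3 in TA cells (0.62). In all 7 comparisons within experiment 5, the nuclear members past 1.5-fold were in either direction a smaller share of those over the minimum than the background of all genes. In WT cells Ndufa11 of complex I had 35.8 CPM in the dark zone against 14.5 CPM in the light zone, while Ndufaf5 (10.1 against 24 CPM) and Ndufv1 (82.3 against 139.03 CPM) were the lowest. In KO cells Ndufaf7 (44.9 CPM in the dark zone against 19.4 CPM in the light zone) and Ndufaf1 (38.9 against 17.6 CPM) were the highest and Ndufv3 of complex I (8.69 against 23.8 CPM) the lowest. In TA cells Sdhd (143.1 CPM in the dark zone against 25.2 CPM in the light zone) and Uqcrb (197.02 against 53 CPM) were the highest, and Ndufaf6 (7.14 against 51.9 CPM) and Atp5k (7.46 against 21.6 CPM) the lowest. Ndufb3 stood high in WT (44.4 CPM in dark zone cells against 19.3 CPM in light zone cells) and low in KO (19.6 against 42.3 CPM), a difference that was not tested.

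The nuclear members lay lower in experiment 1 than in the others by more than in any comparison above (median log2 ratio -2.52 over experiment 3 and -1.81 over experiment 4), and the shortest transcripts lay lowest. In Dec+ light zone cells at 12 h, experiment 1 lay below experiment 3 by a median log2 ratio of -3.80 in the 28 members under 600 bases, -2.30 in the 32 members of 600 to 1000 bases and -0.49 in the 21 members over 1000 bases. Against experiment 4 the medians were -2.61, -1.55 and -0.23. Cox7a2, for example, had 7.45 CPM in experiment 1 against 198.3 CPM in experiment 3 and 104.3 CPM in experiment 4. Spearman's rho of the ratio with transcript length was 0.677 over 81 members for experiment 3, where all genes gave 0.418, and 0.577 for experiment 4, where all genes gave 0.199. These points share their libraries and are given as a description. Every comparison of zone, time, Dec status or genotype above was made within an experiment or with experiment as block.

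**Figure D5:**
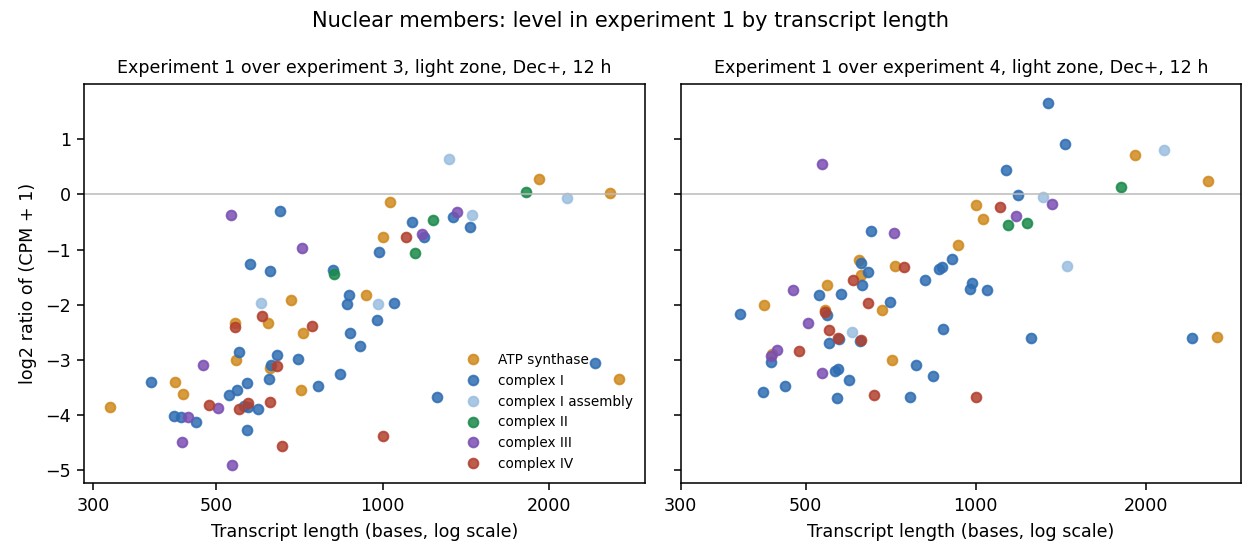
Log2 ratio of CPM + 1 in experiment 1 over experiment 3 (left) and over experiment 4 (right) against transcript length in bases (log axis), for nuclear members at 20 CPM or more in either experiment, Dec+ light zone cells at 12 h, coloured by complex. Members under 600 bases have medians of -3.80 and -2.61, and those over 1000 bases -0.49 and -0.23.

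Other genes of mitochondrial respiration were followed as lists: 40 further assembly factors of the complexes, 30 genes that maintain and express mitochondrial DNA, 16 genes of ubiquinone and cytochrome c, 19 genes of the tricarboxylic acid cycle and 10 regulators of mitochondrial biogenesis. By edgeR 0 of their members passed in the zone comparison, the 6 time comparisons or the zone difference, with 0 to 5 members of a list at an unadjusted p below 0.05 in any of them. Between zones, 17 of 38 assembly factors were higher in the dark zone (median -0.10) and 12 of 29 mitochondrial DNA genes (-0.11). The electron carriers had 9 of 16 higher (0.04) and the biogenesis regulators 4 of 9 (-0.13), where 64.8% of all genes were higher. The tricarboxylic acid cycle genes lay higher in the dark zone, with 16 of 19 (median 0.26, all genes 0.20), led by Dld, the dihydrolipoamide dehydrogenase (0.80, SE 0.27, adjusted p = 0.326). At 46 h in the dark zone they had 11 of 19 higher (0.12), led by Dlst, a subunit of the oxoglutarate dehydrogenase complex (0.90, SE 0.61), the assembly factors 25 of 39 (0.28), the electron carriers 10 of 16 (0.33), the mitochondrial DNA genes 12 of 29 (-0.07) and the biogenesis regulators 3 of 9 (-0.13). None of the medians reached the 0.57 of the nuclear members. In KO against WT dark zone cells, 3 of 18 tricarboxylic acid cycle genes were higher (median -0.38) and 11 of 24 mitochondrial DNA genes (-0.14). The assembly factors had 10 of 22 higher (-0.13), the electron carriers 7 of 11 (0.14) and the biogenesis regulators 3 of 5 (0.26). Of all genes, 42.6% were higher in that comparison (median -0.16). In Dec+ against Dec- cells, 17 of 23 mitochondrial DNA genes (1.15), 11 of 13 electron carriers (0.78) and 14 of 20 assembly factors (0.36) were higher. The tricarboxylic acid cycle genes had 12 of 19 higher (0.24) and the biogenesis regulators 3 of 7 (-0.07). Of all genes, 53.3% were higher in Dec+ cells (median 0.07).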

How the data were processed

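Single germinal center B cells of mouse were sorted into plates and their RNA sequenced. Estimated counts per gene and well were deposited by the authors in combined tables and in tables per plate; RSEM 1.3.1, STAR 2.6, Seurat 3.1.4 and mm10 are named in the submitters' processing notes without a role. The deposited cell tables also give a percent of mitochondrial counts and scores for S and G2M phase per cell, from which the authors' phase calls were taken as they stand. No other step of the authors' is given in the sources used here.

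Of the 1220 columns of the table that holds experiments 1, 3 and 4, 965 matched 1 sample by name. The other 255, of experiment 2, could not be matched to single samples by name and were not used. All 373 columns of experiment 5 matched. No pair of cell columns was identical, and no doublet caller was run. The 97 cells marked for both zones, all labelled as dark zone, were kept under that label. Counts were summed over at least 10 cells per group, rounded, filtered with edgeR's filterByExpr, scaled by TMM and tested with edgeR 4.0.16 (quasi-likelihood, R 4.3.3, limma 3.58.1), with Benjamini-Hochberg adjustment over all genes tested and a threshold of 0.05. Zones were paired by the experiment and time of their labels, and time was tested with experiment as block. Dark and light zone sums of a pair deviated together with correlations of 0.0118 to 0.242. Where a group came from 1 experiment, log2 ratios of CPM with a pseudocount of 1 CPM were taken for genes at 20 CPM or more in either group, with no test, and 1.5-fold counted as a difference. The labels do not say which cells share an animal, and SD over plates is technical. In the time course, p-values measure how far the differences between groups varied from experiment to experiment, pooled over groups. The light zone at 60 h has 1 sum, so no spread of its own enters its p-values. In the zone test they measure the spread between pairs, and pairs of the same experiment at different times were counted as separate. The same holds for the added pairs of experiment 5, which differ by genotype. The zone p-values thus do not measure the spread between experiments alone. Totals per sum set the precision, and counting limits cover counting error only.

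The members and gene lists were chosen with earlier results of these data known. Members named with values were those past the threshold, all mitochondrial members, the 2 highest of each complex, the 2 highest and 2 lowest ratios of each comparison at 20 CPM or more, the tissue isoforms, and the leader of each list, except leaders with a sum at 0, whose fitted ratio depends on the prior count. Other members were named after their values were seen, for their unadjusted p, their place in complex II or as examples. The alternatives were RLE scaling, no filter on low counts, DESeq2 1.42.0, library sizes without mitochondrial genes, cells weighted equally (limma), sums of at least 20 cells, no block, tables per plate, each experiment or plate left out, other pseudocounts and minimum levels, and cells marked for both zones left out. Added after the data were seen were counts with copies, cells of 1 phase, and cells with 3 or more T cell markers left out. The edgeR script was tested on simulated counts. Between zones it recovered 4.17% of genes changed 1.5-fold, 10.9% of those changed 2-fold and 53.2% of those changed 8-fold. For 46 h against 12 h in the dark zone it recovered 0, 2 and 18.8%. A member that did not pass is thus not shown to be unchanged. Pseudogene copies were found as transcripts sharing 31-base words with a member (GENCODE vM21), and motifs by exact match. Python 3.11.15, pandas 2.3.3, numpy 2.4.6 and scipy 1.17.1 were used for the rest.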

Additional observations from a re-analysis of the deposited data

Results flagged for a closer look

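The share of counts in mitochondrial members, as a log2 ratio of dark zone over light zone, was -0.36 in experiment 3 at 12 h, while the other 6 pairs lay between 0.02 and 0.21. The gap to the nearest pair was 0.667 of the range, above Dixon's 95% critical value for 7 values. It was the only 1 of 23 such groups of 7 pairs examined with a value that far out, and chance gives about 1 in 20. In that pair all 12 mitochondrial members over 20 CPM were lower in dark zone cells, where they took 0.926% of counts, than in light zone cells, where they took 1.19%.

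Counts were also present on the chromosome 1 copies of mitochondrial genes, which the comparisons above left out except where copies' counts are said to be added. In experiment 4 the levels were 2110 CPM for Gm10925 (copy of mt-Atp6), 1051 CPM for Gm29216 (mt-Co1), 926 CPM for Gm28661 (mt-Co2), 828 CPM for Gm28437 (mt-Co3), 138.8 CPM for Gm10222 (mt-Nd4l), 21.5 CPM for Gm28438 (mt-Nd3) and 9.68 CPM for Gm28439 (mt-Nd4), each above the limit that a count of 0 allows. With the copies' counts added to their members, 13 of 13 mitochondrial members were higher at 46 h than at 12 h in the dark zone (median log2 ratio 0.41), and none passed the test.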

How the results depend on the processing

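The count of members past the threshold was 0 in all 8 tested comparisons under RLE scaling, no filter on low counts, library sizes without mitochondrial genes, cells weighted equally, tables per plate and counts with copies added, and in 7 of them when a sum needed 20 cells or more. It was also 0 in each of the 8 without the replicate block. Without that block the nuclear medians changed sign at 30 h in the dark zone (-0.28) and in the light zone (0.29), at 60 h in the light zone (0.49) and for the zone difference (-0.58). DESeq2 gave 2 nuclear members between zones (Cox7a2l and Sdhb, both higher in the dark zone), 1 nuclear member at 46 h in the light zone, 1 nuclear member at 60 h in the light zone and 1 mitochondrial member at 30 h in the light zone. Adding the 3 pairs of experiment 5 gave the same 2 nuclear members between zones. Leaving out 1 experiment gave 0 to 0, except 0 to 1 mitochondrial members at 46 h in the light zone (mt-Co3, lower, without experiment 4). No value could be had for the light zone at 46 h with sums of at least 20 cells, nor at 60 h without experiment 3. The cause of these shifts was not tested.

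The median log2 ratios with no test moved as follows. For nuclear members of KO against WT dark zone cells the median was -0.10 with a minimum of 5 CPM, -0.02 without mitochondrial genes in the total, -0.16 with cells weighted equally, -0.01 within G1 cells, -0.22 within S and G2M cells, -0.17 without cells of 3 or more T cell markers and -0.12 to -0.07 with 1 plate left out. In KO against WT light zone cells the nuclear median was -0.07 with cells weighted equally, 0.45 within G1 cells and 0.21 within S and G2M cells, and the mitochondrial one 0.38, -0.02 (reversed) and 0.38. The mitochondrial median of TA against WT light zone cells was -0.56 within G1 cells. Between zones, the nuclear median was 0.57 within G1 cells of WT and -0.18 (reversed) within S and G2M cells of KO, and the mitochondrial median of TA was 0.23 within G1 cells and -0.35 within S and G2M cells.

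With 1 plate left out, the mitochondrial medians ran from -0.22 to -0.07 (Dec+ against Dec-), 0.30 to 0.63 and 0.11 to 0.34 (KO against WT, dark and light zone), -0.29 to 0.16 and -0.36 to 0.06 (TA against WT), and 0.10 to 0.32, -0.12 to 0.02 and -0.10 to -0.04 (dark against light zone in KO, TA and WT). The nuclear ones ran from -0.03 to 0.60 (Dec+ against Dec-), -0.01 to 0.10 (KO against WT, light zone), 0.00 to 0.17 and -0.07 to 0.15 (TA against WT), and 0.05 to 0.10, 0.18 to 0.25 and 0.10 to 0.22 (zones in KO, TA and WT). Of the summary values under an alternative, 23 moved, 2 reversed and the others held, and of the values of single named genes 4581 held, 290 moved and 6 passed a threshold they had missed. Sums of 11 to 22 cells limit the light zone.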
